A study of Mus musculus with 6 samples.

Results

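Glutamate receptors, the auxiliary subunits that travel with them and the Homer scaffolds that anchor some of them were followed across 3 regions of the adult mouse brain. A list of 39 genes was looked up among the probe sets that the array annotation ties to exactly 1 gene symbol, and each gene was represented by its brightest probe set over the 6 arrays. The list holds 24 receptor genes and 15 genes of auxiliary subunits and scaffolds. Of the 39 genes, 38 were measured, out of 22180 genes with a single symbol in the series. Grin1 was not analysed here. Of the 38 genes, 32 had 1 probe set and 6 had 2.

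Glutamate is the main excitatory transmitter of the brain. AMPA receptors carry the fast excitatory current, kainate receptors a slower one, and NMDA receptors admit calcium once the membrane is depolarized, whereas metabotropic receptors act through G proteins. The pore-forming subunits do not work alone. Transmembrane AMPA receptor regulatory proteins (TARPs), cornichons and Shisa proteins bind AMPA receptors and set their delivery to the surface and the time course of their current, and Neto proteins do so mainly for kainate receptors. Homer proteins tie group I metabotropic receptors to the postsynaptic scaffold. The parvafox nucleus is a slender cell group of the lateral hypothalamus whose neurons contain parvalbumin or the transcription factor Foxb1, and its parvalbumin neurons use glutamate.

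The tissue came from mouse 355 and mouse 511, both adults of the C57BL/6 strain with no transgene or treatment. A laser cut 3 pieces from each brain, namely the parvafox nucleus, cerebral cortex from the entorhinal and piriform areas, and hippocampus from the area of CA2 and CA3. The RNA was amplified and hybridized to whole-transcript mouse arrays of Affymetrix (Gene 2.0 ST), with 1 array per region and mouse. The strain is missing from the label of 1 of the 6 samples and was taken from the study's methods for it. These animals were picked by the study because their RNA was the best preserved, the outline of the nucleus was drawn from lectin staining of perineuronal nets on neighboring sections, and the captured tissue held every cell type within that outline. All values are log2 RMA signals, so a difference of 1 is a 2-fold difference, and signals of different probe sets are not set against each other.

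Array medians ran from 3.54 to 3.68. The defining transporters of the regions differed in the direction of the labels. Slc17a6, the vesicular transporter of subcortical glutamate neurons, measured 10.18 and 9.53 in the parvafox samples, 8.24 and 6.24 in the cortical ones and 4.29 and 6.28 in the hippocampal ones (mouse 355, then mouse 511, here and below). Slc17a7, the transporter of cortical and hippocampal excitatory neurons, had 4.13 and 3.27 in the parvafox samples, 9.51 and 9.96 in the cortical ones and 9.83 and 9.79 in the hippocampal ones. The markers that name the nucleus separated the regions less clearly. Pvalb, the gene of parvalbumin, had 7.91 and 7.70 in the parvafox samples, 7.95 and 5.74 in the cortical ones and 7.0 and 6.78 in the hippocampal ones, so that the cortex of mouse 355 was as bright as the nucleus. Foxb1 had 5.82 and 4.15 in the parvafox samples, 3.84 and 3.62 in the cortical ones and 3.55 and 3.82 in the hippocampal ones, and both nucleus arrays were above every other. Over all genes the median gap between the mice was 0.24 in the cortex and 0.27 in the nucleus. Some markers nevertheless set the cortex samples apart. Neurod6, a transcription factor of cortical excitatory neurons, was at 5.27 in mouse 355 cortex and at 9.28 in mouse 511 cortex. Drd1, the dopamine receptor of striatal projection neurons, had 3.79 and 8.33 in the same samples. These had the widest gaps of their marker lists. The other excitatory markers differed by -0.05 (Slc30a3) to 1.63 (Tbr1) for mouse 511 minus mouse 355 in the cortex. All 5 striatal markers were brighter in mouse 511 cortex, by 2.26 (Tac1) to 4.55 (Drd1). For genes with values on every array, the results against the cortex can therefore be read for each mouse. Fitted differences pool the 2 mice. Xist, the RNA of the inactive X chromosome, was at most 3.85 in mouse 511 and at least 6.39 in mouse 355, so that mouse and sex cannot be told apart.

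The median signal of the glutamate receptor genes and their partners was dimmer in the parvafox nucleus than in either other region. Against the cortex the shift was about that of the pan-neuronal genes in the mean of the mice, but not in each mouse. Of the 38 genes, 21 differed in sign between the comparisons, as did 15246 of all 22180 genes. The median difference of the 38 genes was -0.25 on the log2 scale between nucleus and cortex. It was -0.37 in mouse 355 and -0.33 in mouse 511. All 22180 genes had a median of 0.01. The 11 pan-neuronal genes had -0.23, with -0.15 in mouse 355 and -0.51 in mouse 511. Between nucleus and hippocampus the median of the 38 genes was -0.58, with -0.56 in mouse 355 and -0.58 in mouse 511. All genes had 0.02 there. The pan-neuronal ones had -0.29, with 0.05 in mouse 355 and -0.55 in mouse 511. Between cortex and hippocampus the median of the 38 genes was -0.07, against 0.01 for all genes. Relative to the median pan-neuronal signal of each array, the median of the 38 genes was -0.034 for nucleus minus cortex and -0.361 for nucleus minus hippocampus. The spread among the genes was wide, from receptors several fold dimmer in the nucleus to others whose regions overlapped. By the naming rule, values on every array are given for genes past the 2-fold rule or an unadjusted p of 0.05, described below, and for the brightest gene of each class.

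**Figure D1:**
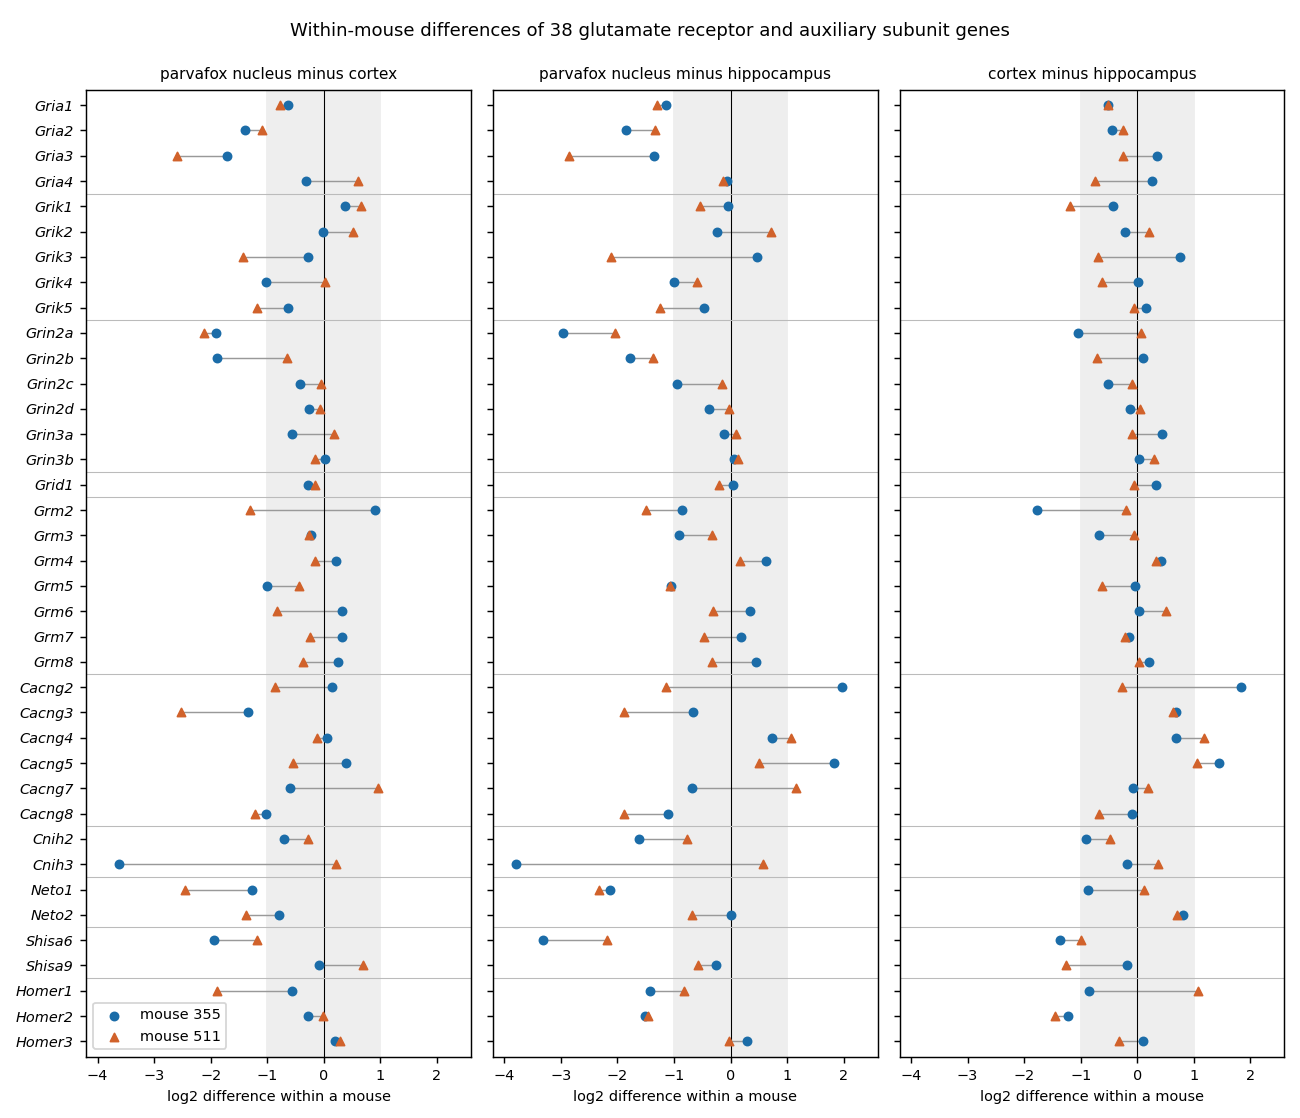
Log2 differences within mouse 355 (circles) and mouse 511 (triangles) for each of the 38 genes, in rows grouped by class, for parvafox nucleus minus cortex, parvafox nucleus minus hippocampus and cortex minus hippocampus; the gray band spans differences of less than 2-fold. Both symbols lie left of the band in both nucleus panels for 6 genes (Gria2, Gria3, Grin2a, Cacng8, Neto1 and Shisa6) and right of it in both for 0 genes.

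In limma with mouse as a block and Benjamini-Hochberg adjustment over 41155 probe sets, 0 of the 38 genes passed 0.05 in any of the 3 comparisons. Over all probe sets 0.0% were called between nucleus and cortex, 0.00243% between nucleus and hippocampus and 0.0% between cortex and hippocampus. The smallest adjusted p among the 38 genes was 0.394 for nucleus against cortex, 0.191 for nucleus against hippocampus and 0.98 for cortex against hippocampus. At an unadjusted limma p under 0.05, for nucleus against cortex 12 genes were lower and 0 higher, where 4.68% of all genes were lower and 3.18% higher. These 12 were Gria1, Gria2, Gria3, Grik5, Grin2a, Grin2b, Grm5, Cacng3, Cacng8, Neto1, Neto2 and Shisa6. For nucleus against hippocampus 14 were lower and 2 higher, beside 5.89% and 4.52% of all genes. The 14 held the same genes apart from Neto2, with Grik4, Cnih2 and Homer2 in addition, and the 2 higher ones were Cacng4 and Cacng5. For cortex against hippocampus 4 were lower (Gria1, Grik1, Shisa6 and Homer2) and 3 higher (Cacng4, Cacng5 and Neto2), beside 2.18% and 2.02%. Among the 13609 genes with a mean signal above that of the median probe set, the shares lower and higher were 7.11% and 4.3% for nucleus against cortex, 9.04% and 6.32% for nucleus against hippocampus and 3.18% and 2.87% for cortex against hippocampus. The 7 genes of the last comparison became 3 without the cortex array of mouse 511 or the hippocampus array of mouse 355, and 4 without the cortex array of mouse 355. Whichever array was left out, an unadjusted p under 0.05 remained for 6 of the 12 genes for nucleus against cortex (Gria2, Gria3, Grin2a, Cacng3, Neto1 and Shisa6), for 9 of the 16 for nucleus against hippocampus (Gria1, Gria2, Gria3, Grin2a, Grin2b, Cacng8, Neto1, Shisa6 and Homer2) and for 1 of the 7 for cortex against hippocampus (Homer2). The 3 comparisons share arrays, and both comparisons of the nucleus rest on the same pair of nucleus arrays.

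The genes were also counted without a test. At least a 2-fold lower signal in the nucleus in all 4 within-mouse comparisons (each mouse, against cortex and against hippocampus) was found for 6 of the 38 genes, beside 0.672% of all genes and 1.09% of the 13609 brighter genes. A 2-fold higher signal in all 4 was found for 0 of the 38 genes, beside 0.216% of all genes. Counting any size of difference, 17 genes were lower in the nucleus in all 4 comparisons and 0 were higher. Of all genes 15.1% were lower and 16.2% higher, and of the brighter ones 19.4% were lower. The other 21 genes differed in sign between comparisons, beside 15246 of all 22180 genes and 8822 of the 13609 brighter ones. Both nucleus arrays lay below all 4 cortex and hippocampus arrays for 14 genes (10.3% of all genes) and above them for 0 (10.7% of all genes). With an array left out a gene has fewer conditions to meet, so the count of 6 can only stay or grow. Without the nucleus array of mouse 355 it was 10, beside 2.61% of all genes under the same looser rule.

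**Figure D2:**
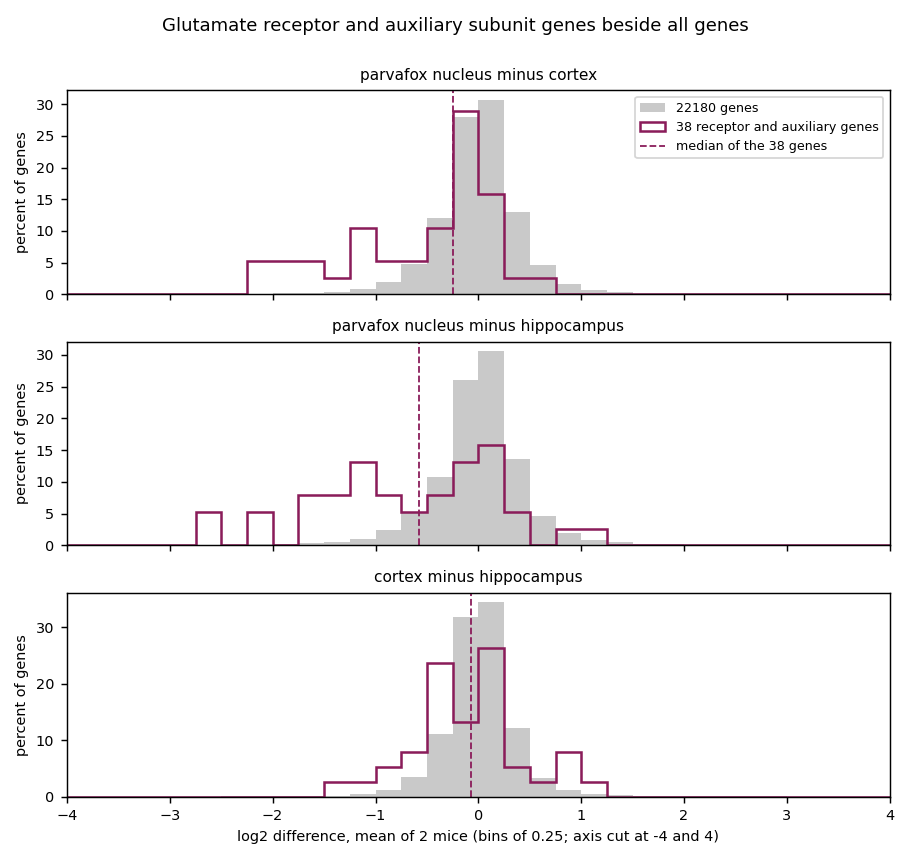
Distribution of the log2 difference (mean of the 2 mice, bins of 0.25, axis shown between -4 and 4) for the 38 genes (outline) and for 22180 genes (gray), as percent of genes, with the median of the 38 genes as a dashed line. The medians lie at -0.25 for nucleus minus cortex, -0.58 for nucleus minus hippocampus and -0.07 for cortex minus hippocampus, and in the nucleus panels the outline has more of its area at the left than the gray distribution.

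Other cell populations moved with the regions. The summed linear signal of 7 measured markers of cortical and hippocampal excitatory neurons was 917 and 947 in the parvafox samples, 4644 and 6903 in the cortical ones and 5948 and 5918 in the hippocampal ones, and all 7 were lower in the nucleus in all 4 within-mouse comparisons. The 7 measured markers of GABAergic neurons summed to 779 and 565 in the parvafox samples, 2864 and 3606 in the cortical ones and 2423 and 3975 in the hippocampal ones. Markers of both neuron types were thus dimmest in the nucleus of both mice. The 4 measured markers of subcortical glutamatergic and parvafox neurons ran the other way, with sums of 1790 and 1225 in the parvafox samples, 649 and 194 in the cortical ones and 171 and 256 in the hippocampal ones. Of these, Slc17a6, Adcyap1 and Foxb1 are in the paper's list of genes enriched in the nucleus on these arrays, so their direction was known in advance. These 3 were higher in all 4 within-mouse comparisons, whereas Pvalb was mixed. The 11 measured pan-neuronal genes summed to 11038 and 8152 in the parvafox samples, 13110 and 12514 in the cortical ones and 11785 and 13043 in the hippocampal ones, a smaller gap. The 8 astrocyte markers summed to between 5178 and 5397 in the nucleus and between 3037 and 4208 in the other regions. Of these 8, 2 (Agt and Itih3) were at least 2-fold higher in the nucleus in all 4 within-mouse comparisons. The paper lists both as enriched in the nucleus on these arrays. By any amount, 4 of the 8 were higher in all 4, 1 was lower and 3 were mixed. The 7 measured markers of oligodendrocytes and their precursors summed to between 2701 and 2766 in the nucleus and between 731 and 2262 elsewhere. By any amount, 5 of the 7 were higher in the nucleus in all 4 comparisons, and the precursor markers Pdgfra and Cspg4 were mixed. The sums of the 5 striatal markers ranged from 949 to 972 in the nucleus, from 378 to 2639 in the cortex and from 228 to 294 in the hippocampus. Tac1 (log2 signals of 8.03 and 9.17) and Penk (8.89 and 7.73) were the brightest of the 5 in both parvafox samples. Drd1 had nucleus signals of 3.79 and 3.26, against hippocampal ones of 3.41 and 5.28. Of the 5, 3 were higher in nucleus than hippocampus in both mice, and Drd1 and Rgs9 differed in sign between the mice. The 6 microglial markers ranged from 668 to 676 in the nucleus and from 846 to 1196 elsewhere, and the 6 vascular ones from 555 to 556 in the nucleus and from 500 to 660 elsewhere. The part of these populations in the signals of the glutamate receptor genes was not tested. In bulk tissue, fewer cells of a type and less RNA per cell cannot be told apart. Relative to the shift of the median pan-neuronal signal, which was -0.08 and -0.35 for nucleus minus cortex and 0.01 and -0.45 for nucleus minus hippocampus, 3 of the 6 genes (Gria3, Grin2a and Neto1) were still at least 2-fold lower in each of the 4.

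Among the AMPA receptor subunits, Gria1, Gria2 and Gria3 had dimmer signals in the nucleus and Gria4 did not. Gria2 encodes GluA2, the subunit whose edited form keeps calcium out of the channel. Its signal was 8.04 and 8.44 in the parvafox samples, 9.44 and 9.52 in the cortical ones and 9.88 and 9.78 in the hippocampal ones. Both nucleus arrays lay below every other array. The difference was -1.24 ± 0.21 (SE) between nucleus and cortex, a 2.36-fold lower signal (adjusted p = 0.415), and -1.59 ± 0.21 between nucleus and hippocampus, 3.01-fold lower (adjusted p = 0.223). Gria3, which encodes a subunit that often pairs with GluA2, had the widest gap of the class, with 6.86 and 5.72 in the parvafox samples, 8.57 and 8.32 in the cortical ones and 8.21 and 8.57 in the hippocampal ones. Its difference was -2.15 ± 0.39 against the cortex and -2.10 ± 0.39 against the hippocampus (adjusted p = 0.423 and 0.277), and the nucleus arrays of the mice were 1.14 apart.

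Gria1, the other abundant forebrain subunit, had 8.19 and 7.92 in the parvafox samples, 8.82 and 8.69 in the cortical ones and 9.33 and 9.22 in the hippocampal ones. The regions did not overlap and kept the same order in both mice. Its difference was -0.70 ± 0.19 for nucleus minus cortex and -1.22 ± 0.19 for nucleus minus hippocampus. Between cortex and hippocampus it was -0.52 ± 0.19 (in the order given, adjusted p = 0.539, 0.236 and 0.999). Gria4, a subunit used in many fast-firing neurons, ranged from 6.24 to 6.99 over the 6 arrays, with nucleus arrays of 6.39 and 6.85 inside that range. Its difference was 0.14 ± 0.31 against the cortex and -0.10 ± 0.31 against the hippocampus.

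The sequence around the annotated start of a gene is printed for Gria2 and for the neighboring TARP genes Cacng8 and Cacng7, because Gria2 and Cacng8 are those of the 6 genes 2-fold lower in all 4 comparisons for which RefSeq windows were at hand, and Cacng7 lies beside Cacng8 without sharing its pattern. Each window runs from 250 bases before to 50 bases after the start in RefSeq's annotation of assembly GRCm38.p6, on the strand of the gene, and capitals mark a GC box (GGGCGG on either strand). The Gria2 window is chr3:80802786-80803085 on the minus strand, the Cacng8 window chr7:3393792-3394091 on the plus strand and the Cacng7 window chr7:3332575-3332874 on the plus strand.
Gria2: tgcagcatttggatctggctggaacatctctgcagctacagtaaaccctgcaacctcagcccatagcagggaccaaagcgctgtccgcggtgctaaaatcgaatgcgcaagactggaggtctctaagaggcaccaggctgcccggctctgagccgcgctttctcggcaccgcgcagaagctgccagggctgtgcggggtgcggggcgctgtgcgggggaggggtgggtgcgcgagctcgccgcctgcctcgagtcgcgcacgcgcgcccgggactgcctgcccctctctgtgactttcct
Cacng8: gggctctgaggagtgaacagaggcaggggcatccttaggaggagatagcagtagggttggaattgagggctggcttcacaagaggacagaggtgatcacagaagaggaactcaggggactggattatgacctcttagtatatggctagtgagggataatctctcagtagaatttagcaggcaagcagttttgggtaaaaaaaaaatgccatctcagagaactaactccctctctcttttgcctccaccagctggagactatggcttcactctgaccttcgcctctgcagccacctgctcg
Cacng7: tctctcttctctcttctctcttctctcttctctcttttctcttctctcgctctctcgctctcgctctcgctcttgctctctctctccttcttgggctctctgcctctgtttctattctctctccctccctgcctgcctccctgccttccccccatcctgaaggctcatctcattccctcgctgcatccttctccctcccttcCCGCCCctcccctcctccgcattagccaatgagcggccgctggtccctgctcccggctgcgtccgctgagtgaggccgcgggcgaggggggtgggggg
The 3 windows differed in CpG dinucleotides, of which Gria2 had 26, Cacng8 2 and Cacng7 15, where the median was 7 over 32851 RefSeq windows and 16 over the 32 windows that 25 of the 38 genes have. A GC box was found in 16 of these 32 windows, among them that of Cacng7, and in 35.7% of all windows. TATAAA, searched on both strands, was in 2 of the 32 and in 13.6% of all windows, and in none of the 3 shown. A match of letters is a description and not a binding site. Whether transcription begins at the annotated starts was not tested, so the CpG counts are not a contrast of promoters.

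Most kainate receptor genes showed no common shift. Grik5 encodes GluK5, a high-affinity subunit that needs a partner of the GluK1 to GluK3 group to form a channel, and was the member of the class lower in the nucleus in all 4 comparisons, by any amount. Its signal was 7.11 and 6.79 in the parvafox samples, 7.75 and 7.98 in the cortical ones and 7.59 and 8.04 in the hippocampal ones, without overlap. The difference was -0.91 ± 0.26 against the cortex and -0.86 ± 0.26 against the hippocampus (adjusted p = 0.564 and 0.431). Grik4, the other high-affinity subunit, had 4.29 and 4.92 in the parvafox samples, 5.31 and 4.90 in the cortical ones and 5.29 and 5.52 in the hippocampal ones. The nucleus of mouse 511 was level with the cortex, and the difference against the hippocampus was -0.80 ± 0.30 (adjusted p = 0.515).

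Grik1 encodes GluK1, formerly GluR5. It had 4.42 and 4.34 in the parvafox samples, 4.04 and 3.69 in the cortical ones and 4.47 and 4.88 in the hippocampal ones, and its cortex arrays were the lowest. The difference between cortex and hippocampus was -0.81 ± 0.25 (adjusted p = 0.999), and between nucleus and cortex 0.51 ± 0.25 (adjusted p = 0.701). Grik2, encoding the widespread GluK2 subunit, lay between 6.62 and 7.34 on all arrays. The mice disagreed on Grik3, with 4.78 and 6.86 in the hippocampus, so that its difference between nucleus and hippocampus was 0.47 in mouse 355 and -2.11 in mouse 511. Grik3 falls outside the naming rule and was singled out for that gap.

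In the NMDA receptor family the GluN2 subunits, which set the channel's kinetics, parted from each other. Grin2a, the GluN2 subunit that becomes prominent in the mature forebrain, had signals of 4.48 and 4.88 in the parvafox samples, 6.39 and 7.0 in the cortical ones and 7.44 and 6.93 in the hippocampal ones. Each nucleus array was at least 1.91 below the cortex of its own mouse and at least 2.05 below its hippocampus. The difference was -2.02 ± 0.33 against the cortex, 4.04-fold lower, and -2.50 ± 0.33 against the hippocampus, 5.67-fold lower (adjusted p = 0.394 and 0.222). Grin2a is the gene that stayed at least 3-fold lower in all 4 comparisons.

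Grin2b, the GluN2 subunit with slower deactivation, had 4.97 and 6.16 in the parvafox samples, 6.85 and 6.82 in the cortical ones and 6.74 and 7.54 in the hippocampal ones. Both nucleus arrays were the dimmest, although the mice were 1.19 apart and the difference against the cortex was -1.89 in mouse 355 and -0.66 in mouse 511. The fitted difference was -1.27 ± 0.34 against the cortex and -1.58 ± 0.34 against the hippocampus (adjusted p = 0.541 and 0.318). The second Grin2b probe set differed by -0.78 from the cortex and -0.57 from the hippocampus. Grin2c, Grin2d, Grin3a and Grin3b did not pass an unadjusted p of 0.05 in any comparison. Their fitted differences between nucleus and cortex ran from -0.24 to -0.07. In that comparison the mice differed in sign for Grin3a (-0.57 and 0.18) and Grin3b (0.02 and -0.16).

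The dimmer probe sets of Grin2c and Grin2d did not follow the brighter ones, an observation made after the values were seen. For Grin2c, encoding a subunit best known from cerebellar granule cells and astrocytes, the brighter probe set differed by -0.24 against the cortex and -0.55 against the hippocampus. Its dimmer probe set differed by -1.24 and -1.80, both past an unadjusted limma p of 0.05. For Grin2d the brighter set gave -0.17 and -0.21 and the dimmer set 1.22 and 0.97, neither past that limit. Grid1, the delta receptor subunit, which binds cerebellins rather than forming a glutamate-gated channel of the usual kind, had 5.76 and 5.56 in the parvafox samples, 6.04 and 5.71 in the cortical ones and 5.71 and 5.77 in the hippocampal ones, with differences of -0.22 ± 0.20 and -0.08 ± 0.20.

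Of the 7 metabotropic receptor genes, Grm5 alone passed an unadjusted p of 0.05. It encodes mGluR5, a group I receptor coupled to phospholipase C. Its signal was 7.36 and 7.83 in the parvafox samples, 8.37 and 8.28 in the cortical ones and 8.41 and 8.90 in the hippocampal ones, without overlap between the nucleus and the other regions. The difference was -0.72 ± 0.24 against the cortex and -1.06 ± 0.24 against the hippocampus (adjusted p = 0.585 and 0.326). Grm3, a group II receptor common in astrocytes, had differences of -0.24 ± 0.24 for the nucleus against the cortex and -0.62 ± 0.24 against the hippocampus. The presynaptic group III receptors Grm4, Grm7 and Grm8 had fitted differences of -0.06 to 0.04 between nucleus and cortex. Between nucleus and hippocampus these ran from -0.14 to 0.40. Against the cortex the mice had opposite signs, with 0.21 and -0.16 for Grm4, 0.32 and -0.25 for Grm7 and 0.25 and -0.37 for Grm8. The dimmer Grm7 probe set, looked at after its values were seen, did not share this. It had 5.57 and 5.65 in the parvafox samples and 5.31 and 4.91 in the cortical ones, higher in the nucleus of both mice. Its fitted difference was 0.50 against the cortex and 0.07 against the hippocampus, neither past an unadjusted limma p of 0.05. Grm6, known from retinal bipolar cells, had signals between 2.95 and 3.77, near the array medians. Grm2, the other group II receptor, had 7.27 and 7.10 in the parvafox samples, 6.36 and 8.40 in the cortical ones and 8.13 and 8.59 in the hippocampal ones. Its cortex arrays were 2.04 apart, so the difference between nucleus and cortex was 0.91 in mouse 355 and -1.30 in mouse 511. Grm2 lies outside the naming rule and was singled out for that gap.

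**Figure D3:**
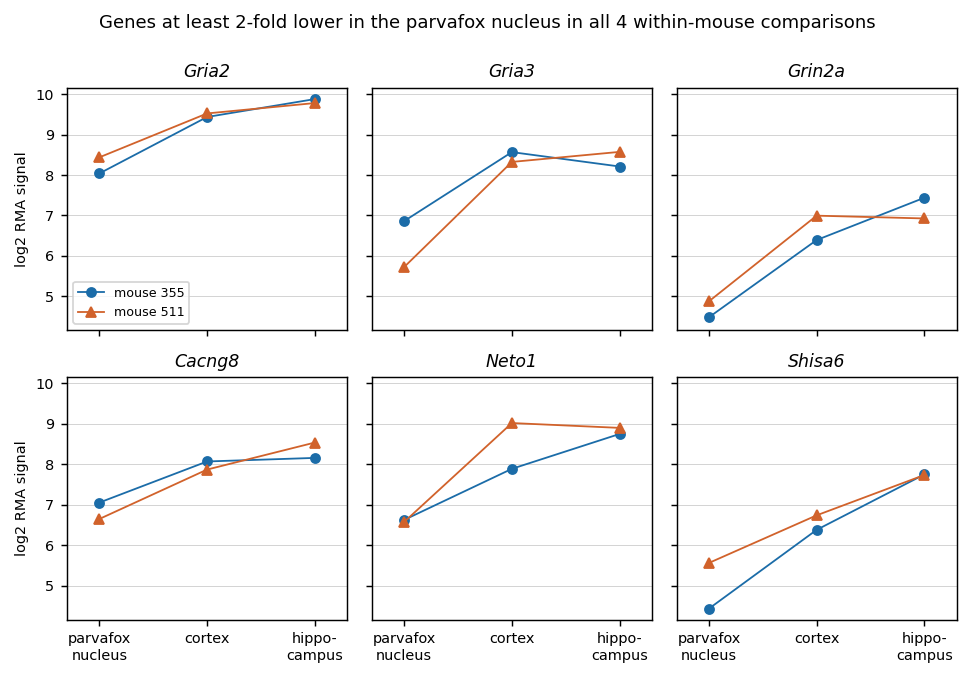
Log2 RMA signal of the 6 genes at least 2-fold lower in the parvafox nucleus in all 4 within-mouse comparisons, by region (parvafox nucleus, cortex, hippocampus) for mouse 355 (circles) and mouse 511 (triangles); lines join the samples of a mouse. The nucleus is the lowest point of both lines in every panel, and for Neto1 the nucleus signals were 6.63 and 6.57.

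The TARP genes did not move as a block. Cacng8 and Cacng3 were dimmer in the nucleus, Cacng4 and Cacng5 were brighter in nucleus and cortex than in hippocampus, and Cacng7 had no steady difference. Cacng8 encodes γ-8, the TARP that prevails at hippocampal synapses. It had 7.06 and 6.65 in the parvafox samples, 8.07 and 7.87 in the cortical ones and 8.16 and 8.54 in the hippocampal ones, so both nucleus arrays were below every other. The difference was -1.12 ± 0.26 against the cortex and -1.50 ± 0.26 against the hippocampus (adjusted p = 0.514 and 0.263). Cacng3 encodes γ-3, a close relative of stargazin. It had 6.73 and 6.18 in the parvafox samples, 8.07 and 8.71 in the cortical ones and 7.39 and 8.07 in the hippocampal ones, and the cortex was the brightest region in both mice. Its difference was -1.93 ± 0.37 against the cortex and -1.27 ± 0.37 against the hippocampus (adjusted p = 0.440 and 0.415).

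Cacng4 and Cacng5 are neighbors in the genome, with 0 protein-coding genes between them in GRCm38.p6, and they shared the order of the regions. Cacng4, encoding γ-4, had 7.21 and 7.71 in the parvafox samples, 7.16 and 7.83 in the cortical ones and 6.48 and 6.64 in the hippocampal ones. The hippocampus was the dimmest in both mice, and the difference was 0.90 ± 0.22 between nucleus and hippocampus, 0.93 ± 0.22 between cortex and hippocampus and -0.03 ± 0.22 between nucleus and cortex (adjusted p = 0.341, 0.980 and 0.980). Cacng5, encoding γ-5, a type II TARP, had 7.58 and 6.56 in the parvafox samples, 7.19 and 7.11 in the cortical ones and 5.75 and 6.06 in the hippocampal ones. Its differences were 1.17 ± 0.36, 1.25 ± 0.36 and -0.08 ± 0.36 in the same order (adjusted p = 0.445, 0.999 and 0.973). These were the 2 genes of the 38 with a higher signal in the nucleus than in the hippocampus at an unadjusted p under 0.05. Cacng5 no longer passed without the nucleus array of mouse 355 (a difference of 0.60) or the hippocampus array of mouse 355 (0.74), and Cacng4 no longer passed without the hippocampus array of mouse 511 (0.69).

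Cacng7 and Cacng8 are also neighbors, again with 0 protein-coding genes between them, but their signals had different patterns. Cacng7, encoding the type II TARP γ-7, had 9.21 and 10.44 in the parvafox samples, 9.81 and 9.48 in the cortical ones and 9.89 and 9.29 in the hippocampal ones. In mouse 355 the nucleus was the dimmest region and in mouse 511 the brightest, and the fitted difference was 0.18 ± 0.49 against the cortex and 0.24 ± 0.49 against the hippocampus. Cacng2 encodes stargazin, the first TARP described. Its signal was 6.85 and 5.87 in the parvafox samples, 6.71 and 6.73 in the cortical ones and 4.87 and 7.0 in the hippocampal ones, and its difference between nucleus and hippocampus was 1.97 in mouse 355 and -1.13 in mouse 511. Cacng2 lies outside the naming rule and is given for this disagreement. Its dimmer probe set had 4.44 and 3.90 in the nucleus and 4.07 and 3.89 in the hippocampus. These signals were near the array medians and level in mouse 511, so that set cannot decide on the change of sign.

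**Figure D4:**
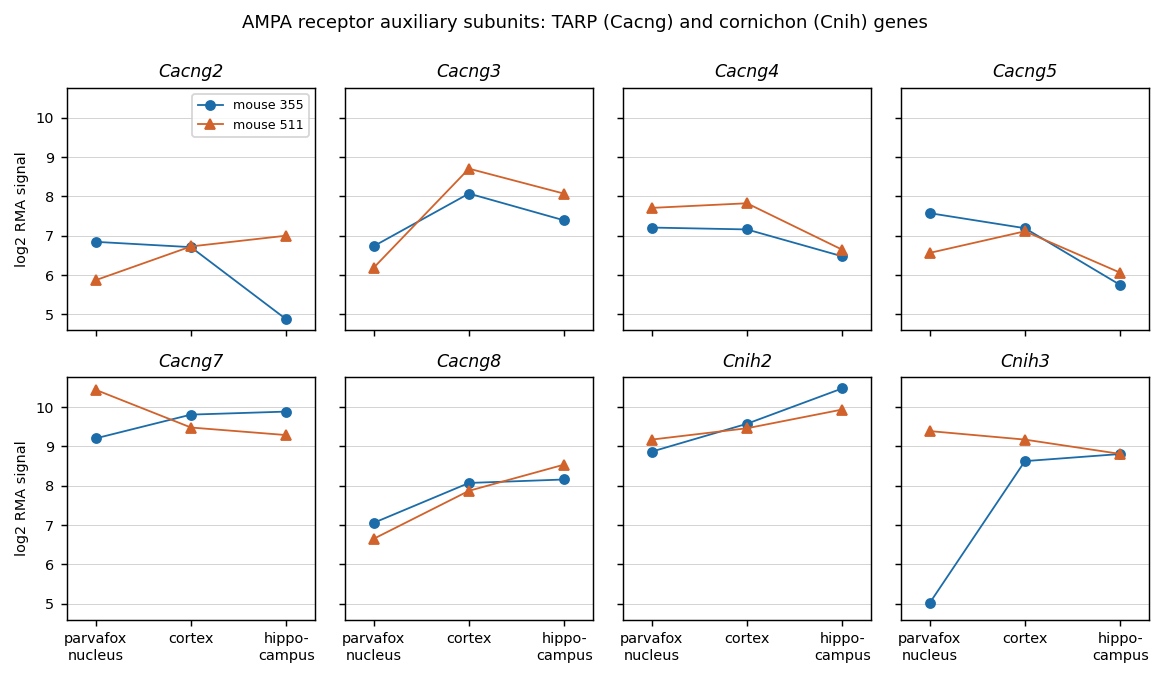
Log2 RMA signal of 6 TARP genes (Cacng) and 2 cornichon genes (Cnih) by region (parvafox nucleus, cortex, hippocampus) for mouse 355 (circles) and mouse 511 (triangles); lines join the samples of a mouse. Cacng3 and Cacng8 are lowest in the nucleus, Cacng4 and Cacng5 are lowest in the hippocampus, and the nucleus signals of Cnih3 were 5.01 and 9.39.

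Cornichons promote the export of AMPA receptors from the endoplasmic reticulum and slow their closing. Cnih2 had 8.87 and 9.18 in the parvafox samples, 9.58 and 9.46 in the cortical ones and 10.48 and 9.94 in the hippocampal ones, in the same order in both mice and without overlap. Its difference was -0.50 ± 0.27 against the cortex and -1.19 ± 0.27 against the hippocampus (adjusted p = 0.718 and 0.327). Cnih3 had 5.01 and 9.39 in the parvafox samples, 8.63 and 9.18 in the cortical ones and 8.81 and 8.81 in the hippocampal ones. The nucleus of mouse 355 was the lowest array by more than 3 log2 units, whereas that of mouse 511 was the highest. The gap of 4.38 between the nucleus arrays ranked 2 among 22180 genes in size. The difference between nucleus and cortex was thus -3.62 in mouse 355 and 0.22 in mouse 511, and the fitted value was -1.70 ± 1.11. Cnih3 is outside the naming rule and was chosen for this gap.

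The Neto and Shisa genes each held a member with a wide difference. Neto1 encodes a protein that binds kainate receptors and also NMDA receptors. It had 6.63 and 6.57 in the parvafox samples, 7.89 and 9.02 in the cortical ones and 8.75 and 8.90 in the hippocampal ones, and the nucleus arrays were 0.05 apart. The difference was -1.86 ± 0.34 against the cortex, 3.62-fold lower, and -2.23 ± 0.34 against the hippocampus, 4.68-fold lower (adjusted p = 0.427 and 0.239). Neto2, the kainate receptor partner, had 6.28 and 6.48 in the parvafox samples, 7.08 and 7.86 in the cortical ones and 6.28 and 7.16 in the hippocampal ones. It was brightest in the cortex of both mice, with a difference of -1.09 ± 0.25 between nucleus and cortex, -0.33 ± 0.25 between nucleus and hippocampus and 0.75 ± 0.25 between cortex and hippocampus (adjusted p = 0.506, 0.745 and 0.999).

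Shisa6 keeps AMPA receptors from desensitizing fully. Its signal was 4.43 and 5.56 in the parvafox samples, 6.38 and 6.74 in the cortical ones and 7.75 and 7.74 in the hippocampal ones. The regions formed 3 separate levels in the same order in both mice. The difference between nucleus and hippocampus was -2.75 ± 0.32, a 6.72-fold lower signal (adjusted p = 0.191), which was the lowest adjusted value of the 38 genes in any comparison. Between nucleus and cortex it was -1.56 ± 0.32 (adjusted p = 0.473) and between cortex and hippocampus -1.18 ± 0.32 (adjusted p = 0.999). Shisa9, also known as CKAMP44, had 7.20 and 7.74 in the parvafox samples, 7.28 and 7.04 in the cortical ones and 7.46 and 8.31 in the hippocampal ones, with differences of 0.31 ± 0.31 and -0.42 ± 0.31 for the nucleus against cortex and hippocampus.

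Of the Homer scaffolds, Homer2 separated the hippocampus from the other regions. It had 4.79 and 5.07 in the parvafox samples, 5.06 and 5.08 in the cortical ones and 6.29 and 6.53 in the hippocampal ones. The nucleus and cortex arrays lay close together and well below the hippocampus. The difference was -1.48 ± 0.19 between nucleus and hippocampus, -1.34 ± 0.19 between cortex and hippocampus and -0.14 ± 0.19 between nucleus and cortex (adjusted p = 0.222, 0.980 and 0.894). Homer1, whose short form is induced by activity, had 4.71 and 5.07 in the parvafox samples, 5.27 and 6.96 in the cortical ones and 6.13 and 5.89 in the hippocampal ones. Both nucleus arrays were the dimmest, with differences of -1.23 ± 0.49 and -1.12 ± 0.49 (adjusted p = 0.641 and 0.564). Homer3 ranged from 4.40 to 5.01 over the arrays.

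The gap between the mice, given as a description, was wider at the median for the 38 genes than for all genes in each region. The mice were at least 2-fold apart in the nucleus for 7 of the 38 genes (5.15% of all genes), in the cortex for 4 (4.05%) and in the hippocampus for 2 (3.01%). A gap of at least 4-fold was found for Cnih3 in the nucleus, Grm2 in the cortex and Grik3 and Cacng2 in the hippocampus, beside 0.388%, 0.397% and 0.271% of all genes. The median size of the gap in the nucleus was 0.43 for the 38 genes and 0.27 for all genes. In the cortex it was 0.33 against 0.24, and in the hippocampus 0.39 against 0.24.

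Other genes of the glutamatergic synapse were followed as lists. The postsynaptic density scaffolds and enzymes, which hold the receptors in place, had the most even pattern. Of 16 listed genes 15 were measured, and at an unadjusted limma p under 0.05, 10 were lower and 0 higher against the cortex, and 12 were lower and 0 higher against the hippocampus. Of all genes 4.68% and 5.89% were lower at that limit, and of the 13609 brighter genes 7.11% and 9.04%. The median differences were -0.81 and -0.99, and 14 of the 15 genes were lower in the nucleus in all 4 within-mouse comparisons, beside 15.1% of all genes and 19.4% of the brighter ones. Camk2a, the α subunit of calcium/calmodulin-dependent kinase II, had 8.42 and 9.16 in the parvafox samples, 10.39 and 10.75 in the cortical ones and 10.87 and 10.68 in the hippocampal ones. Dlgap2, a scaffold between PSD-95 and Shank proteins, had 5.27 and 4.76 in the parvafox samples, 6.33 and 6.17 in the cortical ones and 6.30 and 6.59 in the hippocampal ones. These were the scaffold and enzyme genes at least 2-fold lower throughout, and Camk2a is also on the list of excitatory neuron markers.

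Among 10 further partners of AMPA receptors, 4 were lower and 0 higher against the cortex and 5 lower and 0 higher against the hippocampus at an unadjusted p under 0.05, beside 4.68% lower and 3.18% higher of all genes in the first and 5.89% lower and 4.52% higher in the second comparison. Frrs1l, which takes part in the assembly of AMPA receptors in the endoplasmic reticulum, was at least 2-fold lower throughout, with 7.21 and 7.18 in the parvafox samples, 8.86 and 8.32 in the cortical ones and 8.46 and 8.62 in the hippocampal ones. Of the 7 glutamate transporters, 2 had higher and 1 a lower signal in nucleus than cortex at that limit, and 2 had higher and 3 lower signals in nucleus than hippocampus, beside the same shares of all genes. Slc17a6 and Slc17a7, whose values open the account of the regions, were at least 2-fold higher and 2-fold lower throughout. Slc1a6, the transporter best known from Purkinje cells, was higher in both comparisons, with 6.81 and 7.26 in the parvafox samples, 6.13 and 6.29 in the cortical ones and 5.60 and 5.86 in the hippocampal ones. Its difference was 0.83 ± 0.19 against the cortex and 1.31 ± 0.19 against the hippocampus. It passed an unadjusted p of 0.05 in both, and it was picked out after its values were seen. None of the genes of these 3 lists passed the adjusted threshold of limma in any comparison.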

How the data were processed

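The authors prepared the 6 arrays by RMA (Expression Console 1.2.1.20) and worked further in R 2.14.2, limma and Partek. They deposited log2 signals, for 41345 probe sets per array. The genome build behind the annotation is not given in the sources used here. The array annotation names 1 symbol for 23521 probe sets and several for 1820, and no gene was named from a probe set with several. Leaving out 190 control probe sets, limma 3.58.1 in R 4.3.3 was run on the 6 arrays together, with terms for region and for mouse (2 residual degrees of freedom, a prior of 2.767), because the 3 regions came from the same animals. The mouse differences correlated at 0.079 between nucleus and cortex, 0.059 between nucleus and hippocampus and 0.06 between cortex and hippocampus. Benjamini-Hochberg adjustment covered 41155 probe sets, with a threshold of 0.05, and the fit was tested on simulated data. The rule of a 2-fold difference in each mouse was applied without a test. Marker sums add linear signals. With 2 mice, the number of arrays limits the precision.

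Values on every array are given for each gene that passed the 2-fold rule, had an unadjusted p under 0.05 in any comparison, or was the brightest of its class, which are 22 genes, and any other gene given in this way is said to have been chosen after its values were seen. The genes and lists were chosen with earlier results of these data known. Alternatives were no block or a random block, each array left out, other folds, other scalings, other sets of probe sets, an intensity trend and robust eBayes. Tables were made in Python 3.11.15 with pandas 2.3.3 and numpy 2.4.6, and figures with matplotlib 3.10.9. Gene neighbors came from a RefSeq gene table of GRCm38.p6, which holds all 38 genes, and windows from a RefSeq promoter table of the same assembly, which holds 25 of them.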

Additional observations from a re-analysis of the deposited data

Results flagged for a closer look

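For 5 genes the nucleus or the cortex differed by at least 1.5-fold in opposite directions in the mice. These differences between the mice were not tested. The share of all genes under this rule is not given, so the count is not a result about the glutamate receptor genes and their partners. Grm2, nucleus minus cortex, was 0.91 in mouse 355 and -1.30 in mouse 511, so that mouse 511 minus mouse 355 was -2.21. Cacng2, nucleus minus hippocampus, was 1.97 and -1.13, a difference of -3.11 between the mice. The dimmer Cacng2 probe set, near the array medians and level between these regions in mouse 511, cannot decide on this change of sign. Cacng7 had the other direction, with -0.61 and 0.96 for nucleus minus cortex (a difference of 1.57) and -0.68 and 1.15 for nucleus minus hippocampus (1.84). Cortex minus hippocampus was 0.75 and -0.69 for Grik3 (a difference of -1.44) and -0.85 and 1.07 for Homer1 (1.92). Cnih3, nucleus minus hippocampus, was -3.80 in mouse 355 and 0.581 in mouse 511. It was not counted because the value of mouse 511 fell just short of the 1.5-fold limit. None of these genes is among the 6 that met the 2-fold limit for a lower nucleus signal in all 4 within-mouse comparisons, and with 1 array per region and mouse no spread is at hand for any of them.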

How the results depend on the processing

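Without the replicate block for mouse, 12, 16 and 7 of the 38 genes had an unadjusted limma p under 0.05 for nucleus against cortex, nucleus against hippocampus and cortex against hippocampus, and 0 passed the adjusted threshold, as with it. Of all 41155 probe sets, 3059, 3781 and 1734 had such a p without the block, and 3255, 3947 and 1953 with it. With and without the block, 12, 16 and 6 genes were shared, and for cortex against hippocampus Neto2 passed only with the block and Cnih2 only without it. Under all alternatives run, the count past the adjusted threshold was 0. The 35 differences of 18 genes with an unadjusted p under 0.05 kept their direction in 350 of 350 alternative values. They were picked on these same arrays, and leaving out an array of the third region does not change a difference. Their direction was thus nearly fixed in advance and is no separate evidence. The count of genes lower in the nucleus in all 4 comparisons was 6 at 2-fold (0.672% of all genes), 1 at 3-fold, 10 with the mean of the mice and 3 relative to the pan-neuronal genes. Shares of all genes are not given for the last 3 rules, so these changes in the count are not a result about the 38 genes. Leaving out 1 array at a time, which leaves fewer conditions to meet, the count of genes lower ranged from 6 to 10, beside 0.748% to 2.61% of all genes. It was 10 without the nucleus of mouse 355, and the count of genes higher was 0 throughout. The counts at an unadjusted p then ranged from 9 to 13, from 14 to 18 and from 3 to 8, with 3 for cortex against hippocampus without the cortex of mouse 511 or the hippocampus of mouse 355 and 4 without the cortex of mouse 355. The median difference of the 38 genes was -0.29 for nucleus minus cortex and -0.64 for nucleus minus hippocampus with each array centred on its median. It was -0.54 for nucleus minus hippocampus after cyclic loess and -0.71 with the mean over a gene's probe sets. Relative to the pan-neuronal genes it was -0.034 and -0.361 for the comparisons of the nucleus with cortex and hippocampus. Leaving out 1 array, it ranged from -0.37 to -0.25, from -0.58 to -0.56 and from -0.09 to -0.06 for the 3 comparisons. The cause of these shifts was not tested. With the model refitted and adjusted over probe sets of 1 gene symbol, 8 and 34 probe sets passed for the nucleus against cortex and hippocampus, over probe sets above the median 1 and 3 passed, and 6 and 20 passed without the block or with mouse as a random block, where 0 and 1 passed over all probe sets with the block. None of them was the probe set that represents one of the 38 genes.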
